A study of Mus musculus with 18 samples.

Results

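Core components of the Sonic hedgehog (SHH) pathway and its direct target genes were followed through DOT1L loss and DOT1L inhibition in the mouse cerebellum. The 10 genes, of 22180 genes measured by a cluster with a single symbol, were *Gli1*, *Gli2*, *Gli3*, *Ptch1*, *Smo*, *Sufu*, *Hhip*, *Mycn*, *Ccnd1* and *Ccnd2*. They were chosen by their known roles, at a time when earlier results of these data were known. All 10 were measured, and no filter on low values was applied.

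SHH is a secreted protein which Purkinje cells supply to the granule neuron progenitors of the external granular layer, and it is the main mitogen of these cells. It binds the receptor PTCH1, which releases the membrane protein SMO from inhibition at the primary cilium. GLI transcription factors, otherwise held back by SUFU, then act on target genes. *Gli1*, *Ptch1* and *Hhip* are such targets and are read as gauges of the pathway, and *Mycn*, *Ccnd1* and *Ccnd2* tie it to the cell cycle.

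Expression was read on Affymetrix Mouse Gene 2.0 ST arrays. Cerebella at P3 came from 3 *Dot1l*-cKO mice, which carry both floxed alleles (*Dot1l* f/f) and *Atoh1* cre/+, and from 3 control mice without Cre (*Dot1l* f/f, *Atoh1* +/+), 1 of which is f/+ in its description and f/f in its title; both groups have a BL6/J background. *Atoh1*-Cre was used to delete *Dot1l* in granule cell precursors, and which other cell types keep *Dot1l* was not measured here. These whole cerebella mix cell types, so that fewer cells of a type cannot be told apart from less RNA per cell. Wild-type NMRI mice gave the cultures. Cerebellar granule neuron progenitors (CGNP) were kept with SHH and received the DOT1L inhibitor SGC0946 or its solvent DMSO for 4 h at day 1 in vitro (3 arrays each, from 2 P7 mice and their pool, so that these are not 3 independent animals). Granule neurons (CGN) were kept in serum and treated for 44 h (2 arrays each). The labels give 2 and 4 days in vitro for the DMSO arrays of CGN and 5 and 7 days for the SGC0946 arrays, and an age of P9 for SGC0946 replicate 2. By the labels, treatment of CGN therefore cannot be told apart from days in culture, whereas the methods give a single schedule. The dose is in mM in the labels and in µM in the methods. A further 2 CGN arrays, whose labels name opposite treatments, were left out of every comparison.

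The values were the deposited log2 signals, and groups were compared with limma. A gene was called where its p, adjusted over all genes after Benjamini and Hochberg, was below 0.05. Counts at the cut-off of the methods, an unadjusted p up to 0.05, are given beside it. The median gene read 5.68 to 5.81 in cerebella, 5.05 to 5.10 in CGNP and 4.94 to 5.03 in CGN. *Dot1l* itself had signals of 9.05, 9.13 and 9.05 in the controls against 9.24, 9.43 and 9.01 in *Dot1l*-cKO, from a cluster that spans the gene and not the deleted exon 2 alone, so it does not check the deletion. In CGN it read 8.25 and 8.06 with SGC0946 against 8.72 and 8.54 with DMSO (log2 difference -0.47, unadjusted p = 0.00746, adjusted p = 0.394 by limma). SGC0946 replicate 1 of CGN stood farthest from the other CGN arrays, with a median correlation over genes of 0.9844 against 0.9875 to 0.9884 for the others.

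The windows of 250 bases before the annotated start are shown for *Mycn* and *Sufu*, the pair with the smallest p in CGN, since both were higher there with the inhibitor. They were taken from RefSeq (GRCm38.p6), which gave a promoter for 7 of the 10 genes; those of *Gli1*, *Ccnd1* and *Ccnd2* were not used here. The *Mycn* window lies on the minus strand at chr12:12941837-12942086, and its capitals mark matches to the E2F letters TTTGGCGC and TTTCGCGC on either strand. The *Sufu* window lies on the plus strand at chr19:46396646-46396895, and its capitals mark a CCAAT box (CCAAT) and a GC box (GGGCGG, here as its reverse complement CCGCCC).
Mycn: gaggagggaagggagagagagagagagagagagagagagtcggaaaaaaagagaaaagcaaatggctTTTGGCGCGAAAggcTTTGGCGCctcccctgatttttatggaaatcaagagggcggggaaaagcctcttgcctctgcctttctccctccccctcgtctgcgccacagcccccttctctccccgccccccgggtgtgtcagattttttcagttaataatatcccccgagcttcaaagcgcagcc
Sufu: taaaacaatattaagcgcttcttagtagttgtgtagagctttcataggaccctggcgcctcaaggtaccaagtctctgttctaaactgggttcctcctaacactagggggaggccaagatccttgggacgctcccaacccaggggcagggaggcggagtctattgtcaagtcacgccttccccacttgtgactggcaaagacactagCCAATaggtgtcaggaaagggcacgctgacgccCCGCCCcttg

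E2F factors drive genes of the entry into S phase. The *Mycn* window held 3 E2F matches, 2 of which overlap, from base 183 to base 161 before the start. No other of the 7 windows held one, and 0.654% of all 32851 RefSeq promoter windows of this length did. The GLI consensus GACCACCCA was found in none of the 7 windows and in 0.225% of all, which says only that these letters are absent from these bases. A GC box was common, with 32.7% of all windows and 6 of the 7, *Smo* excepted. CCAAT was found in *Sufu* alone of the 7, and in 33.8% of all windows.

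Within each experiment the groups of most members lay close together. The plot of signals by array shows larger distances between the 3 experiments, which differ in tissue, strain and age and appear normalized apart, so that these distances carry no test.

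**Figure D1:**
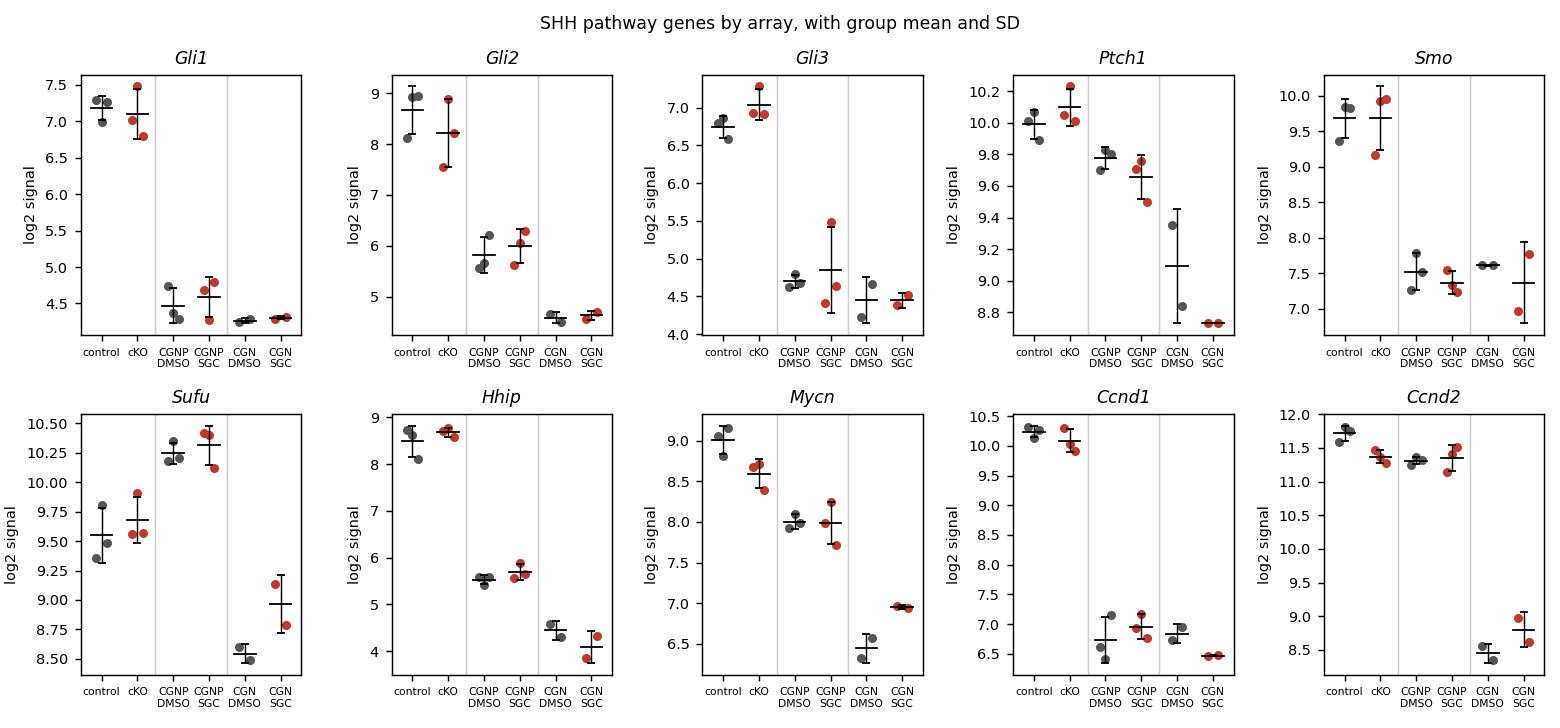
Log2 signal of each gene by array, in cerebella (control, cKO) and in CGNP and CGN cultures with DMSO (grey) or SGC0946 (SGC, red); lines are group means and bars the SD of 3 arrays, or of 2 in CGN. *Mycn* and *Ccnd2* are lower in all 3 cKO than in all 3 control cerebella and higher in both SGC0946 than in both DMSO arrays of CGN.

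The cKO and control cerebella were compared to ask whether the pathway or its targets change in vivo. *Ccnd2* and *Mycn* were the lowest relative to their spread in *Dot1l*-cKO cerebella, by 1.27-fold and 1.33-fold, and the pathway's own gauges *Gli1*, *Ptch1* and *Hhip* differed by at most 1.15-fold with overlapping groups. No member was called after adjustment, and of all genes 0.0225% were (5 of 22180). At the unadjusted cut-off 2 of 10 were lower, against 4.6% of all genes, and 0 of 10 were higher, against 4.09%. Without overlap between groups, 2 of 10 were lower and 1 higher, against 7.75% and 6.28% of all genes. With array medians subtracted, 396 genes were higher and 2433 lower at that cut-off instead of 908 and 1020, and the same 2 members were lower.

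*Ccnd2*, cyclin D2, a D-type cyclin of proliferating granule progenitors, read 11.47, 11.37 and 11.27 in *Dot1l*-cKO against 11.59, 11.81 and 11.75 in controls. Every cKO cerebellum was below every control. The log2 difference was -0.35 (95% interval -0.55 to -0.15; unadjusted p = 0.0027; limma adjusted p = 0.355). *Mycn*, the MYC family factor that carries much of the mitogenic output of SHH, read 8.68, 8.71 and 8.39 against 9.06, 8.81 and 9.15. Here too the groups did not overlap, by 0.10 between the highest cKO and the lowest control. Its log2 difference was -0.41 (95% interval -0.72 to -0.11; unadjusted p = 0.0128; limma adjusted p = 0.464). Without *Dot1l*-cKO replicate 3 or without control replicate 3 it was -0.31 or -0.34 and no longer at the unadjusted cut-off, so that its place there rests on those arrays.

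*Ccnd1*, cyclin D1, read 10.30, 10.03 and 9.92 in *Dot1l*-cKO against 10.32, 10.13 and 10.27 in controls. The groups overlapped and the log2 difference was -0.16 (95% interval -0.42 to 0.10).

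Among the transcription factors, *Gli2*, the main activator that responds to SHH, varied most between mice. It read 7.55, 8.88 and 8.21 in *Dot1l*-cKO against 8.12, 8.93 and 8.94 in controls, an SD of 0.66 and 0.47. The log2 difference of -0.45 had a 95% interval from -1.10 to 0.21. Leaving out *Dot1l*-cKO replicate 2 made it -0.78, and leaving out control replicate 1 made it -0.72, both at the unadjusted cut-off. It shrank to -0.12 without *Dot1l*-cKO replicate 1, to -0.31 and -0.32 without control replicate 3 or 2, and to -0.15 with sex as a term.
*Gli3*, which acts mostly as a repressor in the absence of SHH, was higher in every *Dot1l*-cKO (6.93, 7.28 and 6.91) than in any control (6.79, 6.86 and 6.58). Its difference of 0.30 did not pass the cut-off (95% interval -0.10 to 0.69). *Gli1*, the factor that is itself induced by the pathway, read 7.02, 7.48 and 6.80 against 7.29, 6.99 and 7.27, with the highest and the lowest value of all 6 mice both in *Dot1l*-cKO. Its difference was -0.08 (95% interval -0.52 to 0.36).

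Of the receptors and inhibitors, *Ptch1* read 10.05, 10.23 and 10.01 in *Dot1l*-cKO against 10.01, 10.07 and 9.89, a difference of 0.11 (95% interval -0.13 to 0.34). This interval leaves room for a rise of 0.34 or a fall of 0.13 on the log2 scale. *Hhip*, a decoy that binds hedgehog ligands at the cell surface, differed by 0.20 (95% interval -0.17 to 0.56), and control replicate 3 was the lowest of the 6 mice at 8.10. *Sufu*, the cytoplasmic inhibitor of GLI proteins, differed by 0.13 (95% interval -0.18 to 0.44). *Smo*, the signal transducer, had a difference of 0.00 (95% interval -0.44 to 0.45), with replicate 1 of both groups low at 9.17 and 9.37, and it turned to -0.08 with array medians subtracted.

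Markers of granule progenitors and of dividing cells moved with *Mycn* and *Ccnd2*. The 7 measured progenitor markers averaged 9.77 to 9.86 in *Dot1l*-cKO and 10.29 to 10.32 in control arrays, and all 7 had a lower mean, 5 of them at the unadjusted cut-off, among them *Atoh1*, the factor that defines the lineage (-0.79), *Pax6* (-0.57) and *Sfrp1* (-1.05). Cre is driven by *Atoh1* sequences in these mice, so that gene is not an independent marker in these mice. The 11 dividing cell markers averaged 9.58 to 9.88 against 10.02 to 10.07, 11 of 11 with a lower mean and 7 at the cut-off, such as *Mcm5* of DNA replication licensing (-0.45), *Top2a* (-0.36) and *Rrm2* (-0.41). GABAergic interneuron markers went the other way, 7.97 to 8.02 against 7.41 to 7.64, with 4 of 9 higher at the cut-off, *Pax2* first (1.14, unadjusted p = 1.96e-05, limma adjusted p = 0.0674). Microglia markers averaged 6.39 to 6.73 against 6.24 to 6.45, 3 of 9 higher at the cut-off, and oligodendrocyte markers 7.42 to 7.77 against 7.31 to 7.45, 2 of 9 higher. Purkinje cell markers, from the source of SHH, averaged 9.47 to 9.62 against 9.51 to 9.64, with none of 8 at the cut-off. Postmitotic granule neuron markers averaged 8.26 to 8.30 against 8.16 to 8.35. Of these 11 markers 6 were higher and 5 lower in mean, with 1 lower at the cut-off. Of 10 astroglia and Bergmann glia markers 1 was higher at the cut-off, as was 1 of 12 vascular and meningeal markers. The part of these cell types in the values of *Mycn* and *Ccnd2* was not tested.

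Other steps of the pathway had few genes at the cut-off in *Dot1l*-cKO, and no gene of these lists was called after adjustment. Of 9 genes of ligands and ligand release, *Disp2*, of the family that releases hedgehog from cells, was higher (0.34, SE 0.12), as was *Scube1*, a secreted protein of a family that carries the ligand (0.47, SE 0.20). None of 5 co-receptors and none of 13 cilium genes reached it. Of 19 transducers between SMO and GLI only *Evc*, a ciliary protein that binds SMO, was lower (-0.61, SE 0.21). Of 13 other GLI targets *Sfrp1*, a secreted WNT antagonist also counted as a progenitor marker (SE 0.17, adjusted p = 0.101 by limma), and the cell cycle kinase gene *Cdk6* (-0.45, SE 0.14) were lower. The medians were 0.01 for ligands, -0.12 for co-receptors, -0.07 for transducers, -0.09 for cilium genes and 0.00 for other targets, beside -0.04 for the 10 members and -0.01 for all genes.

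In CGNP kept with SHH, 4 h of SGC0946 left every member, read by its brightest cluster, with overlapping groups, while 5.3% of all genes were higher and 4.49% lower without overlap. None of the 10 was at the unadjusted cut-off, against 2.25% of all genes higher and 1.83% lower, and none was called, against 0.0316% of all genes (7 of 22180). With array medians subtracted, 363 genes were higher and 523 lower at that cut-off instead of 499 and 406. Members had a median difference of 0.09, beside 0.00 for all genes. SGC0946 minus DMSO ranged from -0.15 for *Smo* to 0.23 for *Ccnd1*, and the 95% intervals reached from -0.60 to 0.66. In immunoblots of the paper, H3K79 methylation, the histone mark set by DOT1L, was not lower in CGNP after 4 h of SGC0946. It was lower after a longer treatment. Sequencing of DNA with H3K79me2, a form of this mark, found changed regions at 4 h, but far fewer than in CGN. Of these regions in CGNP more were higher than lower. By the paper, the genome-wide mean of H3K79me2 nonetheless appeared lower with the inhibitor in both kinds of culture.

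The pairs of cultures from the same mice showed how little the members moved together. *Ccnd1* was higher with SGC0946 by 0.32 and 0.75 in the pool and in the first mouse and lower by 0.40 in the second mouse. *Gli1* differed by -0.06, -0.09 and 0.50 in the same order. *Gli3* differed by -0.22, 0.70 and -0.04. None of these 3 genes moved in a single direction over the 3 pairs.
*Gli2* was higher in all 3, by 0.06, 0.39 and 0.07, with signals of 5.63, 6.05 and 6.29 against 5.57, 5.66 and 6.22. *Hhip* differed by -0.02, 0.47 and 0.07, and *Ptch1* by 0.02, -0.06 and -0.30. *Ptch1* read 9.71, 9.76 and 9.50 with SGC0946 and 9.70, 9.83 and 9.80 with DMSO. The gauges *Gli1*, *Hhip* and *Ptch1* thus differed from their paired control by at most 0.50 in every culture.
*Mycn* read 7.99, 8.24 and 7.72 with SGC0946 and 7.93, 8.10 and 7.98 with DMSO, a difference of -0.02 (95% interval -0.37 to 0.33). *Ccnd2* read 11.14, 11.41 and 11.51 against 11.25, 11.36 and 11.32, a difference of 0.04 (95% interval -0.21 to 0.29). *Sufu* differed by 0.07 (95% interval -0.19 to 0.33). Its second, dimmer cluster was higher with SGC0946 without overlap, at 5.36 to 5.94 against 4.95 to 5.32, and the mean of both clusters differed by 0.30 without reaching the cut-off. *Smo* differed by 0.28, -0.45 and -0.29 over the pairs. *Gli1* and *Gli3* lay below the median gene in DMSO cultures of both kinds, although CGNP were kept with SHH.

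The other pathway genes in CGNP held 1 gene at the cut-off, *Igf2*, a growth factor gene that cooperates with SHH in progenitors (0.60, SE 0.24, adjusted p = 1.0 by limma). The marker lists were close between treatments. Dividing cell markers averaged 7.76 to 7.85 with SGC0946 and 7.71 to 7.88 with DMSO, and progenitor markers 9.74 to 9.84 and 9.66 to 9.77, with none of either at the cut-off.

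In CGN, after 44 h of SGC0946, 3 members were higher and 1 lower at the unadjusted cut-off. *Mycn* was higher by 1.43-fold, the GLI inhibitor gene *Sufu* by 1.34-fold and *Ccnd2* by 1.27-fold, and the receptor gene *Ptch1* was lower by 1.29-fold. Among all genes 3.39% were higher and 4.08% lower at that cut-off. None of the 10 was called after adjustment, against 0.153% of all genes (34 of 22180).

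**Figure D2:**
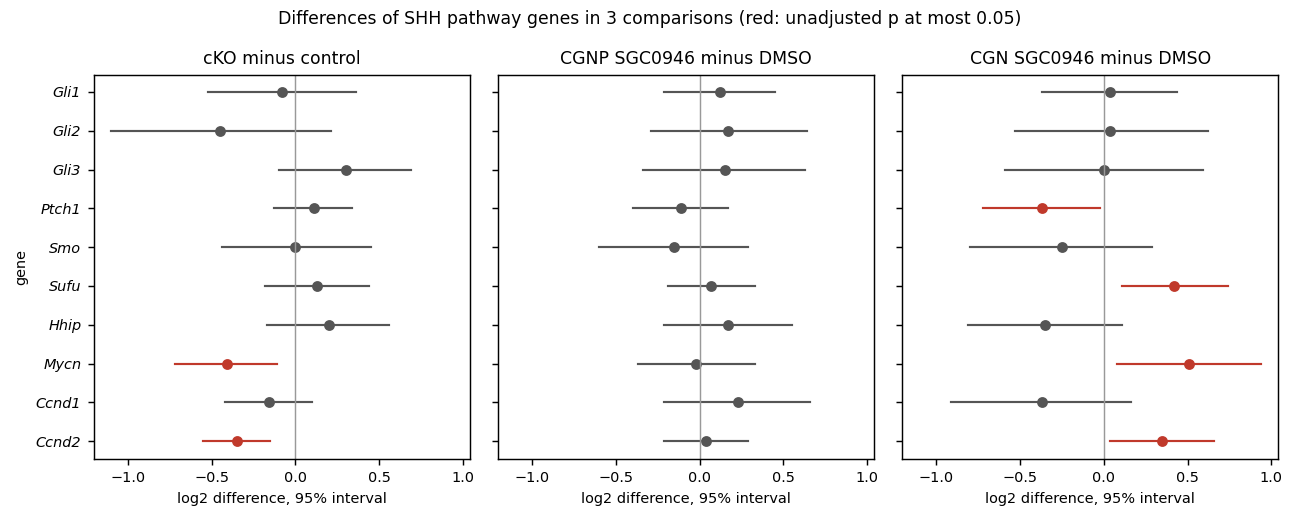
Log2 difference of each gene (points) with its 95% interval (lines) from limma, for cKO minus control, CGNP SGC0946 minus DMSO and CGN SGC0946 minus DMSO; red marks an unadjusted p of at most 0.05. *Mycn* and *Ccnd2* are red on the left of 0 in cKO and on the right of 0 in CGN, and no gene is red in CGNP.

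*Mycn* read 6.97 and 6.94 with SGC0946 and 6.32 and 6.57 with DMSO. Both treated arrays were above both controls, and the log2 difference was 0.51 (95% interval 0.08 to 0.94; unadjusted p = 0.0235; limma adjusted p = 0.562). *Sufu* read 9.14 and 8.79 against 8.60 and 8.49. Its difference was 0.42 (95% interval 0.11 to 0.74; unadjusted p = 0.0128; limma adjusted p = 0.477). A second, dimmer *Sufu* cluster did not follow, with 4.53 to 4.79 against 4.52 to 4.73, and the mean of both clusters differed by 0.23.
*Ccnd2* read 8.98 and 8.62 against 8.55 and 8.35, a difference of 0.35 (95% interval 0.04 to 0.66; unadjusted p = 0.0293; limma adjusted p = 0.59). The lower treated array exceeded the higher control by only 0.07. *Ptch1* read 8.73 and 8.73 against 9.35 and 8.84, a difference of -0.37 (95% interval -0.72 to -0.02; unadjusted p = 0.0395; limma adjusted p = 0.637). The spread lay in the controls, the first of which was 0.51 above the second.

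Some of these differences rest on single arrays. Without SGC0946 replicate 1, the log2 difference shrank to 0.25 for *Sufu* and to 0.17 for *Ccnd2*. It was 0.50 for *Mycn* and -0.37 for *Ptch1*, close in size to the values with all arrays. That refit leaves a single treated array, so that it does not show how certain these sizes are. The difference of *Mycn* was 0.38 without DMSO replicate 1 and 0.64 without DMSO replicate 2. The difference of *Ptch1* was -0.11 without DMSO replicate 1 and -0.62 without DMSO replicate 2. With the variance of each gene taken from the 4 CGN arrays alone and not moderated, 0 of 10 were at the cut-off. Over all genes 257 were called without SGC0946 replicate 2, and 0 in a fit of these 4 arrays alone.

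The other members did not reach the cut-off in CGN. *Ccnd1* read 6.46 and 6.48 with SGC0946 and 6.73 and 6.95 with DMSO, lower in both treated arrays (log2 difference -0.37, 95% interval -0.91 to 0.16). With 2 arrays a group such order is frequent: of all genes 17.1% were lower and 17% higher without overlap, and of the 10 members 2 were lower and 4 higher. *Hhip* read 3.85 and 4.33 against 4.58 and 4.30, a difference of -0.35 (95% interval -0.81 to 0.11). *Smo* read 6.96 and 7.77 against 7.62 and 7.61, and its difference of -0.25 changed to 0.15 without SGC0946 replicate 1.
*Gli1* differed by 0.04, *Gli2* by 0.04 and *Gli3* by 0.00, each with a 95% interval that reached at least 0.37 to either side. All 3 factors read at most 4.70 in the compared CGN arrays, below the median gene.

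Markers of other cells also moved in CGN. Vascular and meningeal markers averaged 5.78 to 6.16 with SGC0946 and 6.23 to 6.44 with DMSO, with 6 of 12 lower at the cut-off, among them *Lum* (-0.94), *Dcn* (-0.54) and *Pdgfrb* (-0.54). Oligodendrocyte lineage markers averaged 6.18 to 6.21 against 6.60 to 6.67, with 9 of 9 lower in mean and 4 at the cut-off, *Olig2* (-0.82), *Olig1* (-0.73) and *Pdgfra* (-0.45) among them. Of 10 astroglia and Bergmann glia markers 3 were lower at the cut-off, *Slc1a2* by the smallest p (-0.90, adjusted p = 0.11 by limma), and *Hopx* was higher (0.92). GABAergic interneuron markers averaged 5.00 to 5.59 with SGC0946 and 5.42 to 5.89 with DMSO. Of these 9 markers 6 were lower and 3 higher in mean, and only *Pax2* was at the cut-off (-0.70). Progenitor markers averaged 9.27 to 9.32 against 9.26 to 9.32, with *Zic1* higher (0.18), and dividing cell markers 5.72 to 5.75 against 5.65 to 5.80, with 0 of 11 at the cut-off. The part of other cells in the differences of the members was not tested.

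Among other pathway genes in CGN, *Scube3*, of the ligand carrier family, was lower (-0.76, SE 0.20, adjusted p = 0.25 by limma), and so was *Disp2* (-0.87, SE 0.29), which had been higher in *Dot1l*-cKO. The GLI target *Bcl2*, a survival gene, was lower (-0.83, SE 0.31), and *E2f1*, a cell cycle transcription factor gene, was higher (0.45, SE 0.20). No co-receptor, transducer or cilium gene of 5, 19 and 13 measured was at the cut-off. None of these was called.

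Whether the inhibitor acted differently in CGN than in CGNP was tested as the difference of both responses. No member was called, none was at the unadjusted cut-off (5.46% of all genes were), and the smallest adjusted p by limma was 0.925. In all, 0 of 22180 genes were called, with 514 higher and 696 lower at the unadjusted cut-off, or 650 and 565 with array medians subtracted. The values farthest from 0 were those of *Ccnd1* (-0.60, 95% interval -1.29 to 0.09), *Mycn* (0.53, 95% interval -0.03 to 1.09) and *Hhip* (-0.52, 95% interval -1.12 to 0.08). *Sufu* differed by 0.36 and *Ccnd2* by 0.31. Treatment times of 4 h and 44 h differ as well, so that cell state and duration cannot be told apart.

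Signals of the members in CGN and CGNP with DMSO were set side by side to describe progenitors and neurons in culture. CGNP were kept with SHH and CGN in serum, and days in vitro and time in DMSO differ too. Differentiation therefore cannot be told apart from the medium or from these times. Of 10 members, 5 were lower in CGN by at least 2-fold without overlap, against 11.2% of all genes, and 0 were higher, against 2.75%. After all culture arrays were quantile normalized together, 4 members were lower by this measure, against 4.3% of all genes, and *Hhip* fell just short at -0.97. The medians were -0.88 for the members and -0.23 for all genes on the deposited values.
*Ccnd2* had a difference of -2.86, or -2.30 after joint normalization. Its DMSO arrays read 11.25, 11.36 and 11.32 in CGNP and 8.55 and 8.35 in CGN. No other member was so far apart.
*Sufu* differed by -1.71 and -1.15 on the 2 scales, reading 10.18, 10.35 and 10.21 against 8.60 and 8.49. *Mycn* differed by -1.56 and -1.15, reading 7.93, 8.10 and 7.98 against 6.32 and 6.57. *Gli2* differed by -1.23 and -1.08, and *Hhip* by -1.09 and -0.97. Both lay below the median gene in CGN, with means of 4.59 and 4.44, and no background level was used, so that the size of their differences is less certain. An inhibitor, a target of the mitogenic arm and an activator of the pathway were thus all lower in CGN.
*Ptch1* was lower without overlap on the deposited values (-0.68) and overlapped after joint normalization (-0.11). *Smo* and *Ccnd1* had differences of 0.09 and 0.11 that became 0.57 and 0.50 without overlap. The order of these 3 genes between CGNP and CGN hence depends on the scale. *Gli1* and *Gli3* differed by -0.20 and -0.25, with overlapping arrays on both scales.

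**Figure D3:**
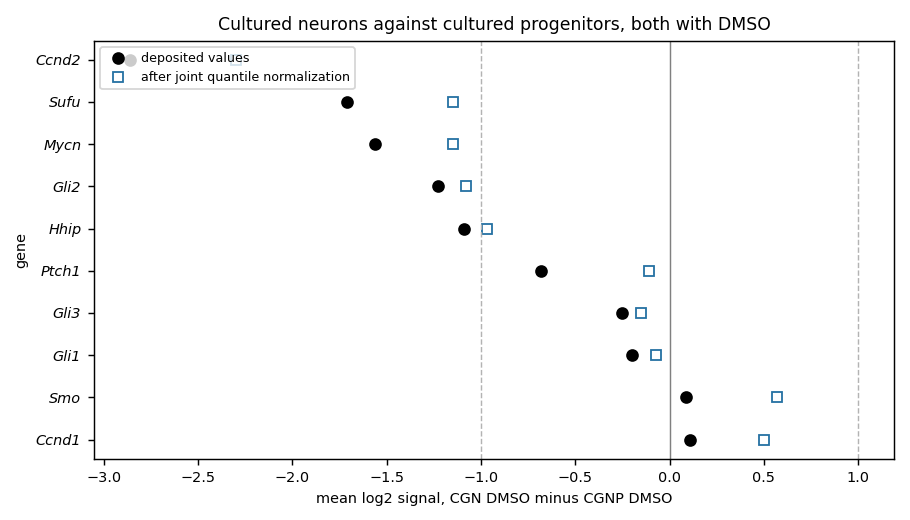
Mean log2 signal in CGN DMSO (2 arrays) minus CGNP DMSO (3 arrays) for each gene, from the deposited values (filled circles) and after joint quantile normalization (open squares); dashed lines mark a 2-fold difference. *Ccnd2* lies farthest to the left on both scales, at -2.86 and -2.30, and the open squares lie to the right of the circles for every gene.

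The dividing cell markers were lower with them, averaging 5.65 to 5.80 in CGN and 7.71 to 7.88 in CGNP. Of these markers 10 of 11 were lower by at least 2-fold without overlap, such as *Plk1* (-2.83), *Rrm2* (-2.64) and *Aurkb* (-2.46). Of 13 other GLI targets 3 were lower in this way, *E2f1* (-2.56) and *Cdk6* (-1.63) among them, and *Bcl2* was higher (2.00). Of 19 transducers 5 were lower, led by the kinase gene *Stk36* (-1.80), *Arrb2*, an arrestin that binds SMO (-1.61), and *Csnk1a1*, a kinase that phosphorylates SMO and GLI proteins (-1.52). Of 5 co-receptors *Gpc3* was lower (-1.03), and of 9 ligand genes *Scube3* (2.06) and *Scube1* (1.27) were higher. The cilium genes held none, with *Ift52* (-0.95) the farthest.
Of 12 vascular and meningeal markers 3 were higher in CGN by at least 2-fold without overlap, *Dcn* (3.77) and *Lum* (3.76) among them, while 5 of the 12 were lower in mean. Of 8 Purkinje cell markers 3 were higher in this way, *Calb1* (3.05) among them. Of the neuron markers *Nhlh1*, a factor of newly born granule neurons, was lower (-2.68), and so was *Rbfox3* (-1.52), which encodes the neuronal antigen NeuN. In all, 4 of 11 postmitotic granule neuron markers were lower by at least 2-fold without overlap and 1 was higher, beside 11.2% and 2.75% of all genes on the deposited values, and 5 of the 11 were higher in mean.

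**Figure D4:**
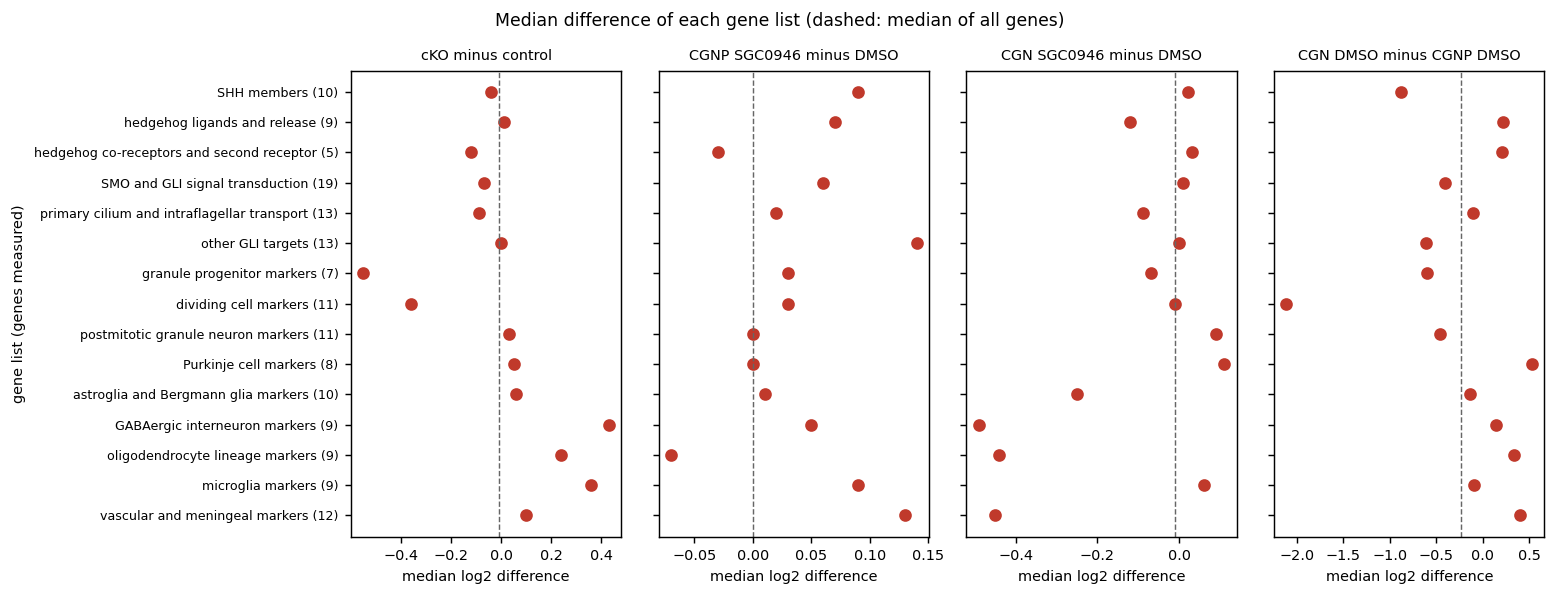
Median log2 difference of each gene list (points, number of measured genes in brackets) in the 4 comparisons, with the median of all genes as a dashed line and a separate scale for each panel. In cKO the lists of progenitor and dividing cell markers lie lowest (-0.55 and -0.36) while the 10 SHH genes lie at -0.04; from CGNP to CGN the dividing cell markers lie lowest at -2.11 and the SHH genes at -0.88.

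The pattern of single members within experiments was set against all genes at or above the median signal. Pearson correlations were taken over 16 arrays after the mean of each experiment was subtracted, so that shared arrays and treatments enter every value, and are descriptions. Those most like *Ccnd2* were *Ube2c*, a gene of mitotic exit (0.91), *Nwd2* (0.89) and *Myt1* (0.88). Those most like *Mycn* were *Ccp110*, of the centriole cap (0.87), *Rpl4* (0.85) and *Cul4a* (0.83). For *Ccnd1* they were *Fam122b* (0.88), *Wee1*, a kinase that restrains entry into mitosis (0.85), and *Dll3* (0.84).
For *Ptch1* they were *C230091D08Rik* (0.87), *Mir670* (0.85) and *Fosl2* (0.85), and for *Gli1* *Ssbp3* (0.85), *Ddx46* (0.84) and *Cdc25a*, a phosphatase of the cell cycle (0.81). No member was among these genes. *Mycn* and *Ccnd2* correlated with each other at 0.55, whereas *Gli1* correlated with them at 0.10 and 0.02.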

How the data were processed

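Values were log2 signals of Affymetrix Mouse Gene 2.0 ST arrays. By the methods, the deposited log2 values came from Partek software: probes were first adjusted for their GC content and sequence, then corrected for background by RMA, quantile normalized and summarized by median polish. The sources used here do not give versions. Per-array tables and the value matrix were identical. Deposited p-values, q-values and fold changes of the authors' comparisons were not used.

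Of 34472 clusters 23521 had 1 gene symbol, 1820 several and 9131 none; each of the 22180 genes was read from its brightest cluster (1082 had several). limma 3.58.1 in R 4.3.3 (lmFit, eBayes with intensity trend) was fitted to 6 cerebella and, apart, to 10 culture arrays; p-values were adjusted after Benjamini and Hochberg, over all genes. The fit was tested on simulated data. The number of arrays limits precision. Nothing says that replicates of CGN came from separate litters, and p-values measure only the spread between these arrays.

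Members and gene lists were chosen with earlier results of these data known. Named are every member, up to 3 genes a list with the smallest unadjusted p at the cut-off (for CGN against CGNP, the largest differences without overlap) and the 3 genes most like 5 members. CGN against CGNP was described without a test, since these experiments appear normalized apart. CGNP replicates share mice across treatments, which pairs them; the correlations of their deviations were 0.013, 0.035 and 0.010. Alternatives were another variance, scaling, filter and cluster rule, sex as a term, the pairing as a block, and each array left out.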

Additional observations from a re-analysis of the deposited data

Results flagged for a closer look

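*Mycn* and *Ccnd2* moved in opposite directions in the 2 systems, with every array of one group on one side. Of all genes, 7.75% were lower without overlap in cKO and 17% were higher without overlap in CGN with SGC0946. *Mycn* differed by -0.41 in *Dot1l*-cKO cerebella and by 0.51 in CGN with SGC0946, and *Ccnd2* by -0.35 and 0.35. A fit of all 6 groups was added after these values were seen. In it, the difference between both effects was -0.93 for *Mycn*, -0.70 for *Ccnd2* and 0.47 for *Ptch1*. None of the 10 members was called (smallest adjusted p = 0.111 by limma), against 41 of 22180 genes. The pair was picked for its opposite signs, so that this fit restates the pattern and is no independent evidence of it. Deletion and inhibitor differ in time, tissue and cell types.

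The 2 CGN arrays with contradictory labels were set against the higher DMSO array of CGN. The second, of a P8 mouse by its label, was higher for *Sufu* (8.83) and *Mycn* (6.92), and both were higher for *Ccnd2* (8.86 and 8.80). The margin used was the moderated residual SD of each gene in the culture fit, 0.15 for *Sufu*, 0.20 for *Mycn* and 0.14 for *Ccnd2*; for *Sufu* and *Ccnd2* both SGC0946 arrays differ from each other by more than these arrays exceed DMSO. By title the first is a DMSO and the second an SGC0946 array, and by description the reverse. Grouped by title or by description, the CGN arrays would overlap between treatments for *Ccnd2* and also for *Ptch1*. For *Sufu* and *Mycn* they would overlap when grouped by description but not by title.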

How the results depend on the processing

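No alternative brought a member past the adjusted threshold in any of the 4 tested comparisons. At the unadjusted cut-off, the count in CGN was 4 and became 2 without the intensity trend, 0 with ordinary variance and 1 with the arrays of the comparison alone; leaving out 1 array gave 0 to 4. The remaining array of such a CGN group was assumed to vary like the other groups. In cKO the count was 2 and 1 to 3 with 1 array left out, in CGNP it was 0 and 0 to 1, and for the difference between CGN and CGNP responses 0 and 0 to 3, with 1 (*Mycn*) without the trend and 1 (*Mycn*) with array medians subtracted. In CGNP, with the pairing by mouse as a replicate block, 0 members were called and 0 were at the cut-off, with *Ccnd1* at 0.23 and *Ccnd2* at 0.04; the block changed no member's call, and 10 genes were called instead of 7. Sex, read from *Xist* and Y-linked genes in mice, was uneven between cKO and control and as a term changed no member's call, although *Gli2* moved from -0.45 to -0.15. Between CGN and CGNP with DMSO, 4 to 5 members stayed 2-fold apart.

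Of 494 refits of single members 23 turned the sign of an uncalled difference, 21 of them with 1 array left out. The others were *Smo* in cKO with array medians subtracted (-0.08) and *Sufu* in the difference of responses with the mean of both clusters (-0.07). With 1 array left out, the ranges were -0.27 to 0.07 for *Gli1* and -0.15 to 0.26 for *Smo* in cKO; -0.18 to 0.37 for *Gli3*, -0.15 to 0.11 for *Mycn* and -0.04 to 0.15 for *Ccnd2* in CGNP; -0.04 to 0.13 for *Gli2*, -0.21 to 0.21 for *Gli3* and -0.66 to 0.15 for *Smo* in CGN; and for the difference of responses -0.23 to 0.02 for *Gli1*, -0.33 to 0.02 for *Gli2*, -0.36 to 0.18 for *Gli3*, -0.51 to 8e-05 for *Ptch1* and -0.51 to 0.30 for *Smo*. The cause was not tested.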

Other observations

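The 2 CGN arrays with contradictory labels read 4.29 and 4.17 for *Gli1*, 4.38 and 4.35 for *Gli2*, 4.24 and 4.62 for *Gli3*, 9.36 and 8.88 for *Ptch1*, 7.18 and 6.69 for *Smo*, 8.46 and 8.83 for *Sufu*, 4.58 and 4.03 for *Hhip*, 6.40 and 6.92 for *Mycn*, 6.74 and 6.58 for *Ccnd1* and 8.86 and 8.80 for *Ccnd2*. *Dot1l* read 7.99 and 8.06, at or below the lowest of the 4 CGN arrays compared (8.06).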
